A study of Drosophila melanogaster with 4 samples.

Results

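Among the 15340 genes of the table, 7807 carried a symbol made only of the letters CG and a number, and 79 of these were higher in both mutant-labelled libraries than in both control-labelled libraries by a fixed margin. A gene was a member when the lower of its values in the mutant-labelled libraries was at least 50 normalized counts and at least 2 times the higher of its values in the control-labelled libraries. A listed set of 17 CG-numbered genes was left out by name, and 8 of those would have passed, so that 87 CG-numbered genes passed in all. The members were therefore chosen by their values in the very comparison described here, and their higher level in the mutant-labelled libraries is a description of the choice and not a tested result. A CG number is the identifier that the Drosophila genome project gave to a predicted gene, and a gene keeps it as its symbol until it is named after a mutant, a protein or a relative in another species. The rule joined the members by that kind of symbol and by their values, and whether any of them share a pathway was not tested. XBP1, the protein missing in the mutant, is a transcription factor of the unfolded protein response. IRE1, an enzyme in the membrane of the endoplasmic reticulum, splices Xbp1 mRNA when unfolded protein collects there, and the spliced mRNA encodes the active factor, which raises chaperones and the secretory machinery.

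By the labels and the study's methods, RNA was measured by stranded, ribosomal-RNA-depleted sequencing of whole Drosophila melanogaster larvae in the 2nd instar. The mutant-labelled libraries (2) came from larvae homozygous for Xbp1 ex79, a loss-of-function allele left by the imprecise excision of a transposon at Xbp1, and the control-labelled libraries (2) came from Xbp1 +/+ larvae of a line in which the same transposon had left precisely. Every library of a genotype was made from its own RNA extraction of that single line, so the spread between libraries is that between extractions, and a difference between the 2 excision lines other than in Xbp1 cannot be told apart from the effect of the allele.

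Reads assigned to genes numbered 37122025 and 38601267 in the mutant-labelled libraries and 34947910 and 31416284 in the control-labelled libraries, and the single RNA CR41602 took 37.2% to 43.7% of them. The normalized count is a read number divided by one factor for each library, and 3 reads were worth 2.69 to 3.62 normalized counts. Xbp1 itself stood at 6087 and 5953 normalized counts in the mutant-labelled libraries, against 5521 and 7378 in the control-labelled libraries. The groups overlapped for the targeted gene, so its count gives no check of the labels, and every direction given here rests on the labels alone. That direction is in doubt, because the study's text and displays place gene terms and genes that include members among those lower in Xbp1 mutants, the reverse of what the column labels give for the same genes. Exchanged labels would turn the sign of every difference given here. Of the counts, only those of Xbp1 and of members that the study names were set against the labels. Which assignment is right was not settled here. The larval serum proteins and fat body proteins (6 genes) took 37.4% and 45% of the normalized counts outside CR41602 in the mutant-labelled libraries and 39.4% and 45% in the control-labelled libraries. Myosin heavy chain, Mhc, a defining gene of muscle, was at 192 and 258 normalized counts in the mutant-labelled libraries and at 160.2 and 194 in the control-labelled libraries. By sums over tissue genes, the first control-labelled library stood apart from the other 3. Its summed level over 15 testis genes was 9353 normalized counts. The sum was 3817 in the second control-labelled library and 1905 and 3718 in the mutant-labelled libraries. Gene by gene, the testis genes also differed between the groups. Both mutant-labelled values were below both control-labelled values for 9 of the 14 tested and above for 0. Their median log2 difference between mutant-labelled libraries and control-labelled libraries was -1.37. Over 13 listed midgut genes, the first control-labelled library summed to 4326 normalized counts. The sum was 78.4 in the other control-labelled library and 39.4 and 75.9 in the mutant-labelled libraries. Most of the 4326 came from the serine protease Jon65Aiv, at 2616, and from Jon65Aiii, at 1333. Jon65Aiv was at 22.9 in the other control-labelled library and at 3.58 and 13.3 in the mutant-labelled libraries. Only 4 of the 13 genes were abundant enough to be tested, so the sum does not speak for all 13. Both mutant-labelled values were below both control-labelled values for 3 of these 4 and above for 0. Muscle genes (4) summed to 401 and 544 normalized counts in the mutant-labelled libraries, against 241 and 294 in the control-labelled libraries. The part of these tissue differences in the members' values was not tested. Whether the levels of these tissue genes match the labelled tissue and stage was not tested either.

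Of the 10500 genes that averaged 10 normalized counts or more, 26.2% had both mutant-labelled values above both control-labelled values, a condition that the rule imposed on all 79 members. On the log2 scale, after adding 1 normalized count, the members' differences between mutant-labelled libraries and control-labelled libraries ran between 1.14 and 6.43 with a median of 1.80, against a median of -0.03 over all genes tested. Without the first control-labelled library, the one that stood apart, the members' median was 1.75 and their lowest difference 1.05. The rule's ratio of 2 holds against each control-labelled library, so the choice itself bounded these values. They are no check of that library's part. limma, fitted across those genes with Benjamini-Hochberg adjustment, called 1 gene higher (0.00952% of those tested), which was no member, while 6.89% of all genes and all 79 members were higher at an unadjusted p under 0.05. DESeq2, run on whole reads recovered from the normalized counts, called 1.90% of the 9391 genes it tested as higher, and 53 of the 79 members. Nothing is read from these calls about the members, since the same contrast chose them. With 2 libraries in each group an exact two-sided permutation test of a single gene cannot go below 0.333.

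The same level and ratio were met by 69 genes with other kinds of symbols. Among CG-numbered genes whose lower mutant-labelled value reached 50, 87 of 3110 (2.8%) met the ratio, and among other genes 69 of 3802 (1.81%) did. With the groups exchanged the rule picked 53 of 3491 CG-numbered genes (1.52%) and 55 of 3929 other genes (1.4%). The margin between the groups was narrow for most members. The ratio of the lower mutant-labelled value to the higher control-labelled value had a median of 2.48, was under 3 for 52 members, and reached 10 for 7 and 20 for 4.

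**Figure D1:**
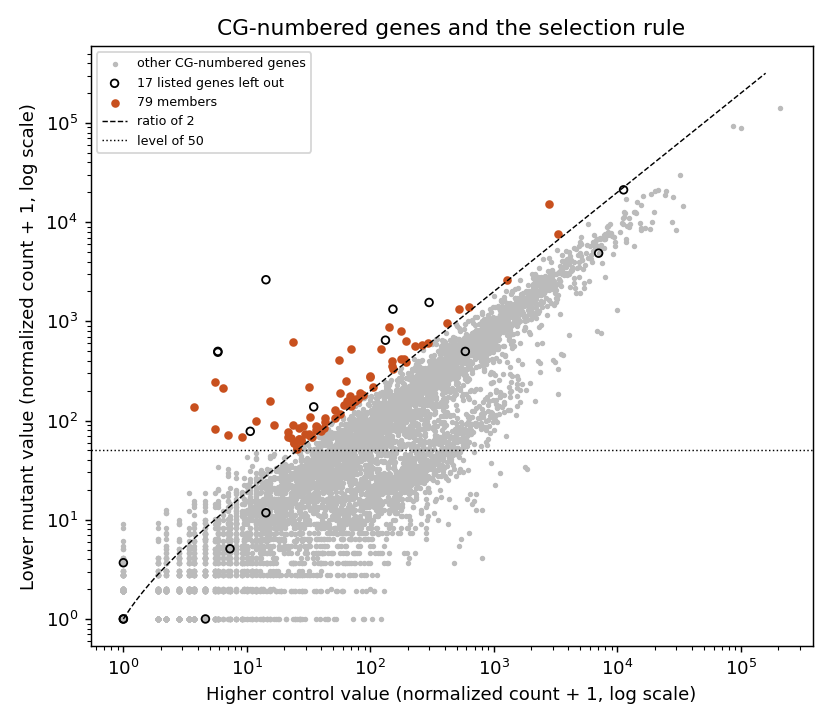
Each point is a CG-numbered gene, with the higher of its values in the control-labelled libraries on the horizontal axis and the lower of its values in the mutant-labelled libraries on the vertical axis, both as normalized counts plus 1 on log axes. Open circles are the 17 listed genes left out, and the 79 members are the other genes above the lines for a level of 50 and a ratio of 2, most of them close to the ratio line.

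The genes nearest the thresholds differed little from one side to the other. CG31792 had 78 and 172 normalized counts in the mutant-labelled libraries, against 38.7 and 37.4 in the control-labelled libraries, a ratio of 2.014. CG31004, CG6928, CG4194 and CG34232 followed inside, with ratios of 2.017, 2.023, 2.025 and 2.037. CG4872, just outside, had 128 and 96.4 normalized counts in the mutant-labelled libraries, against 42.3 and 48.2 in the control-labelled libraries, a ratio of 1.998. CG5819, CG18754, CG12071 and CG3630 followed outside, with ratios between 1.981 and 1.991. At the level threshold CG5535 was just inside, at 74.4 and 50.2 normalized counts in the mutant-labelled libraries, against 24.3 and 24.1 in the control-labelled libraries, and CG31867 and CG13078 came next. CG5783 was just outside it, at 48.4 and 66.6 normalized counts in the mutant-labelled libraries, against 20.7 and 22.9 in the control-labelled libraries. CG33514 and CG16756 came next outside, and CG33514 missed the level through its second mutant-labelled library alone, with 284 and 46.1 normalized counts in the mutant-labelled libraries, against 10.8 and 10.9 in the control-labelled libraries.

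A first set of members was close to silent in the control-labelled libraries. CG8641, at 3L:7058930-7077462 on the minus strand (dm6), had 241 and 248 normalized counts in the mutant-labelled libraries, against 4.5 and 2.41 in the control-labelled libraries. Its log2 difference was 5.82 ± 0.47 (standard error of the fit, 2 libraries a group), and its ratio of summed reads was 67.7 (exact 95% interval 32.6 to 169, counting error only). This was the widest margin of all members, with the lower mutant-labelled value 53.6 times the higher control-labelled value. CG34353, a gene of 137878 bases at 3R:27767966-27905843, had 220.4 and 213 normalized counts in the mutant-labelled libraries, against 5.4 and 0 in the control-labelled libraries. It was the only member with a library at 0, and its read ratio of 70.2 had an exact interval of 32 to 192, from counting error only. Its log2 difference of 6.43 ± 0.95 was the highest of all members and had the largest standard error. CG10814, annotated as gamma-BBH, the enzyme that makes carnitine in the last step of its synthesis, had 207 and 136 normalized counts in the mutant-labelled libraries, against 2.7 and 1.21 in the control-labelled libraries. Both of these control values were at or below the floor of 3 reads, and the ratio of summed reads was 84.4 with an exact interval of 32.7 to 311. CG10384 had 81.5 and 94.3 normalized counts in the mutant-labelled libraries, against 4.5 and 2.41 in the control-labelled libraries. CG43351, a gene of only 242 exonic bases, had 164 and 69.7 normalized counts in the mutant-labelled libraries, against 3.6 and 6.03 in the control-labelled libraries. For these genes the control-labelled libraries held so few reads that the size of the difference is poorly fixed, while the groups lay far apart in every library.

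A second set was clearly present in the control-labelled libraries and still several-fold higher in the mutant-labelled libraries. CG34330, a gene of a single exon at X:19068275-19068973, had 829 and 619 normalized counts in the mutant-labelled libraries, against 22.5 and 20.5 in the control-labelled libraries. The lower mutant-labelled value was 27.5 times the higher control-labelled value, and its values in the control-labelled libraries were close to each other. CG32407 had 526 and 599.7 normalized counts in the mutant-labelled libraries, against 69.3 and 49.4 in the control-labelled libraries. CG40006, which spans 133933 bases at 2L:22622417-22756349, had 624 and 409 normalized counts in the mutant-labelled libraries, against 54 and 54.3 in the control-labelled libraries. The control values of CG40006 were nearly equal, and the spread lay in the mutant-labelled libraries. CG43897 had 244 and 219 normalized counts in the mutant-labelled libraries, against 30.6 and 16.9 in the control-labelled libraries. CG13897, now named hng3, had 876 and 892 normalized counts in the mutant-labelled libraries, against 116 and 139.9 in the control-labelled libraries, a log2 difference of 2.78 ± 0.22. Its values were close together within each group and far apart between groups. CG15673 was lower in level, at 134 and 89.2 normalized counts in the mutant-labelled libraries, against 15.3 and 15.7 in the control-labelled libraries.

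Some wide margins came with a large spread within a group. CG43968 had 310.0 and 97.4 normalized counts in the mutant-labelled libraries, against 9.9 and 10.9 in the control-labelled libraries. CG13905, now named mat, had 768 and 530.0 normalized counts in the mutant-labelled libraries, against 121 and 15.7 in the control-labelled libraries, and its log2 difference of 3.83 ± 0.94 was among the least precise. In CG43968 the first mutant-labelled library was the high one, and in CG13905 the second control-labelled library was the low one.

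**Figure D2:**
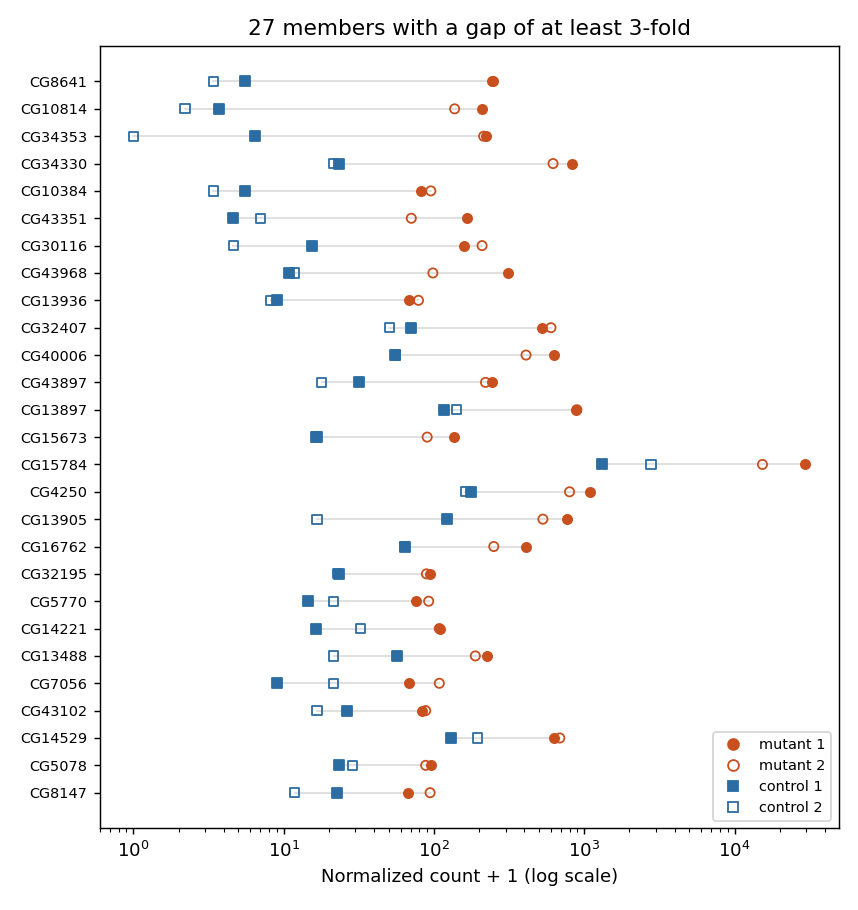
Normalized counts plus 1 on a log axis for the 27 members whose lower value in the mutant-labelled libraries was at least 3 times the higher value in the control-labelled libraries, 1 point for each library, ordered by that ratio. The points of the 2 groups do not overlap for any of them, as the rule requires, and the members at the top of the order differ mainly by their near-zero values in the control-labelled libraries.

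In abundance the members were very unequal. CG15784, a gene of 1 exon at X:5429571-5432526, had 29402 and 15339 normalized counts in the mutant-labelled libraries, against 1303 and 2781 in the control-labelled libraries. It made up 40.7% of the members' summed mean level over the mutant-labelled libraries, and its log2 difference was 3.48 ± 0.48. Its first library was the higher of the mutant-labelled libraries and the lower of the control-labelled libraries. The members together took 0.302% and 0.195% of the reads outside CR41602 in the mutant-labelled libraries and 0.0619% and 0.0559% in the control-labelled libraries. CG6928 had 2714 and 2591 normalized counts in the mutant-labelled libraries, against 1054 and 1281 in the control-labelled libraries, a log2 difference of only 1.19 ± 0.19. CG3566 had 1331 and 1337 normalized counts in the mutant-labelled libraries, against 392 and 525 in the control-labelled libraries. CG4250 had 1099.5 and 798 normalized counts in the mutant-labelled libraries, against 176 and 160.4 in the control-labelled libraries. Only 6 members had a mean of 1000 or more in the mutant-labelled libraries, 29 lay between 200 and 1000, and 44 lay under 200. Per kb of exon, the scale on which genes can be compared, CG15784 had a mean of 7568 normalized counts in the mutant-labelled libraries and 691 in the control-labelled libraries. CG11459 followed with 5809 and CG4250 with 1448 per kb of exon in the mutant-labelled libraries, against 2266 for CG11459 and 257 for CG4250 in the control-labelled libraries.

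A role was assigned to 28 members, from names, synonyms or the study, and 51 were left without one. The assignment was not complete, since CG31373, for example, carries the synonym PDF and was left without a role. The counts by role below are therefore counts of assigned members only. The median log2 difference was 1.80 over the members with an assigned role and 1.82 over those without.

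Peptidases and their relatives numbered 6, with log2 differences between 1.36 and 2.05. CG11459, now CtsL3 and named after cathepsin L, a cysteine protease of lysosomes, had 8739.6 and 7676 normalized counts in the mutant-labelled libraries, against 3089.6 and 3313 in the control-labelled libraries. It was the second most abundant member, and its libraries agreed closely within each group (log2 difference 1.36 ± 0.18). CG14529, now Nepl17, belongs to the neprilysin-like family, relatives of the mammalian metallopeptidase that cuts small peptides outside the cell, and had 632 and 687 normalized counts in the mutant-labelled libraries, against 129.6 and 194 in the control-labelled libraries. CG8358, or Nepl12 of the same family, had 177 and 176 normalized counts in the mutant-labelled libraries, against 60.3 and 67.5 in the control-labelled libraries. The other 3 were of the trypsin-like serine protease family. CG7142 (SP132) had 346 and 282 normalized counts in the mutant-labelled libraries, against 99 and 79.6 in the control-labelled libraries. CG16710 (SP16) had 78.9 and 81 normalized counts in the mutant-labelled libraries, against 20.7 and 35 in the control-labelled libraries. CG34437 (SPH201), whose name marks it as a serine protease homologue, had 626 and 420.3 normalized counts in the mutant-labelled libraries, against 117 and 185 in the control-labelled libraries. All 6 were at 20.7 normalized counts or more in every library, and none had the wide margins of the genes that were near silent in the control-labelled libraries. Among the 13 listed midgut genes, Jon65Aiv and Jon65Aiii, also peptidases, had their high values in the first control-labelled library.

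Members assigned to metabolic enzymes numbered 8, with CG10814 the widest of them. CG32699 (LPCAT), a lysophosphatidylcholine acyltransferase that remakes membrane phospholipid, had 923 and 580.3 normalized counts in the mutant-labelled libraries, against 259 and 188 in the control-labelled libraries. CG1673 (Bcat), the transaminase that starts the breakdown of branched-chain amino acids, had 599 and 623 normalized counts in the mutant-labelled libraries, against 192 and 291 in the control-labelled libraries. CG10131, now Had2 and a dehydrogenase by name, had 397 and 668 normalized counts in the mutant-labelled libraries, against 140.4 and 149.5 in the control-labelled libraries. The second mutant-labelled library was the higher of its pair for Had2 and the lower for LPCAT, so the members did not follow a single library here. CG8147 (phu, Alp3) and CG1809 (Alp6) are alkaline phosphatases, which remove phosphate groups at alkaline pH. CG8147 had 66.3 and 93.3 normalized counts in the mutant-labelled libraries, against 21.6 and 10.9 in the control-labelled libraries. CG1809 had 77.1 and 62.5 normalized counts in the mutant-labelled libraries, against 14.4 and 26.5 in the control-labelled libraries. CG17027, which the study listed under dephosphorylation among genes lower in the mutant, opposite to its direction by the labels, had 351 and 492 normalized counts in the mutant-labelled libraries, against 148 and 38.6 in the control-labelled libraries, with a large spread between the control libraries. CG5346, which the study listed under oxidation-reduction, likewise among genes lower in the mutant, had 951 and 1236 normalized counts in the mutant-labelled libraries, against 386 and 419.7 in the control-labelled libraries.

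Members assigned to transport numbered 4. CG42235, now kumpel, carries the synonym dSLC5A10, after a mammalian family of sodium-coupled sugar carriers, and had 1386 and 1571 normalized counts in the mutant-labelled libraries, against 629 and 244 in the control-labelled libraries. The control-labelled libraries were over 2-fold apart here, more than the mutant-labelled libraries were. CG8028 is annotated with the synonym MCT, the name of the monocarboxylate transporters that carry lactate and pyruvate, and had 156 and 220.4 normalized counts in the mutant-labelled libraries, against 63 and 63.9 in the control-labelled libraries. CG2789 (Tspo), the translocator protein of the outer mitochondrial membrane, had 240.2 and 162 normalized counts in the mutant-labelled libraries, against 68.4 and 55.5 in the control-labelled libraries. CG7589 (SecCl), a chloride channel by name, had 71.7 and 71.8 normalized counts in the mutant-labelled libraries, against 28.8 and 21.7 in the control-labelled libraries.

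Another 3 members act in neuropeptide signalling, the circadian clock or sleep. CG13936 encodes CNMa, the precursor of the neuropeptide CNMamide, and had 67.2 and 77.9 normalized counts in the mutant-labelled libraries, against 8.1 and 7.24 in the control-labelled libraries. Its log2 difference of 3.08 ± 0.46 was the widest of the 3. CG31324 (Cipc) is the fly relative of a mammalian protein that binds and represses the clock factor CLOCK, and had 273 and 441 normalized counts in the mutant-labelled libraries, against 83.7 and 98.9 in the control-labelled libraries. CG6954 (wake), needed for the timely onset of sleep in adult flies, had 413 and 420.3 normalized counts in the mutant-labelled libraries, against 104 and 177 in the control-labelled libraries. The table holds a second row now assigned to the wake gene, CG42686, with 43 and 53.3 normalized counts in the mutant-labelled libraries, against 14.4 and 8.44 in the control-labelled libraries. Such second rows also exist for ringer and lncRNA:CR43174, described further on, and there the groups overlapped. The row for ringer, CG34249, had 4.48 and 0 normalized counts in the mutant-labelled libraries, against 0 and 1.21 in the control-labelled libraries. The row for lncRNA:CR43174, CG43173, had 9.86 and 27.7 normalized counts in the mutant-labelled libraries, against 18.9 and 7.24 in the control-labelled libraries. The neuronal marker genes found (3) summed to 9683 and 10138 normalized counts in the mutant-labelled libraries and to 8292 and 10809 in the control-labelled libraries, so that the groups overlapped.

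Cell structure and gene regulation were represented by 4 members of modest level. CG31004 (mesh), a membrane protein of the septate junctions of the gut, had 138 and 188 normalized counts in the mutant-labelled libraries, against 68.4 and 19.3 in the control-labelled libraries, and lay just above the ratio threshold. CG4893 (ringer), the fly member of the tubulin polymerization promoting proteins, had 116 and 144 normalized counts in the mutant-labelled libraries, against 32.4 and 55.5 in the control-labelled libraries. CG7056 (HHEX), a homeodomain transcription factor, had 67.2 and 108 normalized counts in the mutant-labelled libraries, against 8.1 and 20.5 in the control-labelled libraries. The last of these members, CG43102, had 82.4 and 87.1 normalized counts in the mutant-labelled libraries, against 25.2 and 15.7 in the control-labelled libraries.

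The study named 3 members among genes that the drug tunicamycin, which blocks N-glycosylation and so unfolds proteins in the endoplasmic reticulum, induces in flies. That display was drawn from genes changed in these same samples, so it is not independent evidence of their direction, and it showed them as lower in the mutant, opposite to the direction by the labels. CG30116 had 157 and 208 normalized counts in the mutant-labelled libraries, against 14.4 and 3.62 in the control-labelled libraries, a log2 difference of 4.43 ± 0.68. CG4928 had 609 and 562 normalized counts in the mutant-labelled libraries, against 229.6 and 131 in the control-labelled libraries. CG3868 had 156 and 559 normalized counts in the mutant-labelled libraries, against 30.6 and 73.6 in the control-labelled libraries. CG3868 thus had the least even pair of mutant-labelled libraries among the 3. A list of 16 genes of folding and quality control in the endoplasmic reticulum had a median log2 difference of 0.03. Both mutant-labelled values were above both control-labelled values for 2 of these genes and below for 2. None of the 16 could be a member, since they carry names and the rule took only CG-numbered symbols. Genes of the Cyp family of detoxifying and hormone-making oxidases were also fixed by symbol. Both mutant-labelled values were above both control-labelled values for 26 of 67 tested and below for 12, with a median log2 difference of 0.30. For genes with Gst or Ugt symbols the counts were 20 above and 9 below of 41 tested, with a median of 0.30. Over all genes tested the share above was 26.2%, and the share below was not counted.

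**Figure D3:**
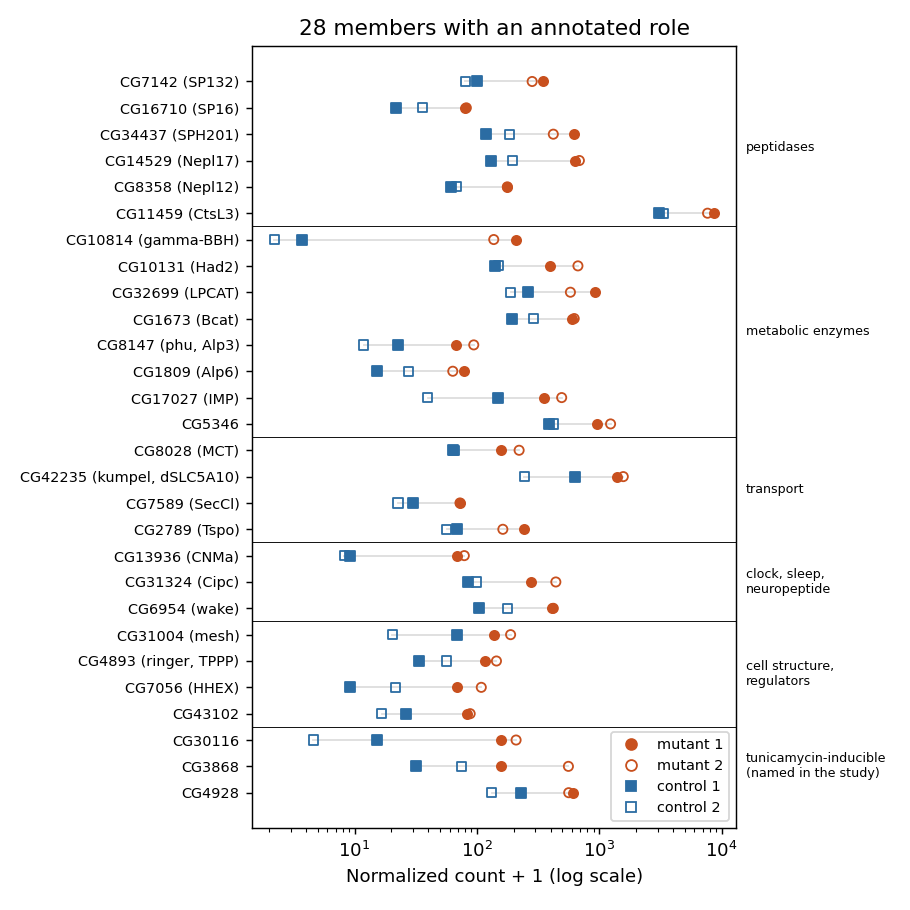
Normalized counts plus 1 on a log axis for the 28 members with an annotated role, grouped by role, with circles for the 2 mutant-labelled libraries and squares for the 2 control-labelled libraries, filled for the first library of a group and open for the second. Most members lie between 10 and 1000 normalized counts, CG11459 lies far above the others at 8739.6 and 7676 in the mutant-labelled libraries, and CG10814 has the widest gap between the groups.

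Other members left without an assigned role included several of moderate level. CG16762 had 408 and 249 normalized counts in the mutant-labelled libraries, against 63 and 62.7 in the control-labelled libraries. CG11882 had 428 and 333 normalized counts in the mutant-labelled libraries, against 152 and 139 in the control-labelled libraries. Both had nearly equal values in the control-labelled libraries. CG13321 had 166 and 219 normalized counts in the mutant-labelled libraries, against 78.3 and 18.1 in the control-labelled libraries, and CG13488 had 224 and 188 normalized counts in the mutant-labelled libraries, against 55.8 and 20.5 in the control-labelled libraries. In these genes the first control-labelled library was the high one, as it was for mesh and CG17027. The 20 members whose values are not given singly (CG5770, CG5078, CG13078, CG12520, CG8620, CG7992, CG32354, CG31373, CG3880, CG31999, CG31272, CG6006, CG6974, CG17751, CG31867, CG13992, CG13506, CG1635, CG12177 and CG4194) lay between 52.3 and 227 normalized counts in the mutant-labelled libraries and between 12.6 and 104 in the control-labelled libraries. Their log2 differences ran between 1.14 and 2.25.

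Position in the genome was not used by the rule. All 79 members matched the dm6 annotation, 59 by the same symbol, 17 by locus tag and 3 by synonym. A name other than the CG number is now given to 19 (24.1%), against 25.3% of the tested CG-numbered genes. The arms of chromosome 3 held 21 members on 3L and 22 on 3R, or 26.6% and 27.8%, where 19.6% and 24.8% of the tested CG-numbered genes lay. The left arm of chromosome 2 held 9 members, or 11.4%, where 19.5% of the tested CG-numbered genes lay. The tested CG-numbered genes averaged 10 normalized counts or more, while members had to reach 50 in both mutant-labelled libraries, so the base includes genes too low to be members. These shares are given as a description, with no test.

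Long genes were frequent among the members. A gene span over 10 kb was found for 17 members (21.5%), against 8.94% of the tested CG-numbered genes, while the median exonic length was close to the same, at 1686 bases for members and 1642 for tested CG-numbered genes. The difference in level between the members and that base holds here too, and the shares were not tested. Among the 12 members with the widest margins, 6 spanned over 10 kb, against 11 of the other 67. CG34353 and CG40006 had the largest spans of those described above, and most of their length is intron. One member, CG43174, is annotated as a long non-coding RNA, lncRNA:CR43174, and had 69 and 76.9 normalized counts in the mutant-labelled libraries, against 25.2 and 31.4 in the control-labelled libraries.

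A few members lay side by side. CG33281, CG33282 and CG3285 follow each other on the plus strand of 2L between 3324237 and 3332876, with gaps of 1265 and 1135 bases. CG3285, the highest of them, had 325 and 181 normalized counts in the mutant-labelled libraries, against 69.3 and 86.8 in the control-labelled libraries. CG33281 had 86.9 and 100.5 normalized counts in the mutant-labelled libraries, against 35.1 and 25.3 in the control-labelled libraries. CG33282 had 86 and 58.4 normalized counts in the mutant-labelled libraries, against 10.8 and 22.9 in the control-labelled libraries. In 2 of these 3 neighbours the first mutant-labelled library was the higher one. On 2R, CG13177 and CG34232 end 12 bases apart on opposite strands. CG13177 had 279.6 and 187 normalized counts in the mutant-labelled libraries, against 29.7 and 82 in the control-labelled libraries. CG34232 had 513 and 391 normalized counts in the mutant-labelled libraries, against 119 and 192 in the control-labelled libraries. In both genes of this pair the first mutant-labelled library and the second control-labelled library were the higher ones. CG14823, at 3L:7066314-7069463, lies inside the span of CG8641 on the opposite strand and had 170.3 and 152 normalized counts in the mutant-labelled libraries, against 68.4 and 69.9 in the control-labelled libraries. The wide margin of CG8641 was not shared by the gene inside it.

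The nearest tested genes beside the members that were no members themselves, leaving out rows now assigned to a member's own gene, numbered 150. Both mutant-labelled values were above both control-labelled values for 60 of them (40%), against 26.2% of all genes tested, and 8 (5.33%) met the level and ratio of the rule. A CG-numbered neighbour that met both would itself be a member unless left out by name, and all 8 had other kinds of symbols. Over the 10500 genes tested, 87 CG-numbered genes, the members among them, and 69 others met both. That is no like base for the neighbours, and nothing is read from the 5.33%. The 8 were GstE11, Ubi-p5E, rols, oa2, spz6, dpr9, Gyc32E and dmrt93B, and values of GstE11, Ubi-p5E and rols follow. GstE11, a glutathione transferase beside CG30116, had 306 and 185 normalized counts in the mutant-labelled libraries, against 60.3 and 48.2 in the control-labelled libraries. Ubi-p5E, a polyubiquitin gene beside CG3566, had 8098 and 6907 normalized counts in the mutant-labelled libraries, against 2984 and 2590.4 in the control-labelled libraries. rols, beside CG6928 and known for its part in the fusion of muscle precursors, had 554 and 276 normalized counts in the mutant-labelled libraries, against 119.7 and 100.1 in the control-labelled libraries. Neighbours are not independent of the members where transcripts overlap, and the difference of the shares was not tested.

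Reads of some members could come from other genes. Exons of a gene on the opposite strand cover at least 10% of the exonic bases of 5 members. These are CG2789 (75%), CG31272 (48.4%), CG1635 (83.3%), CG14823 (32.7%) and CG1809 (100%). The partners of CG31272, CG1635 and CG1809 are annotated antisense RNAs, for which no values are given here. The library kit keeps strand, but the strand setting of the counting is not given in the sources used here, so reads of these genes and their partners cannot be told apart with certainty. The partner of CG2789, rempA, had 52 and 60.5 normalized counts in the mutant-labelled libraries, against 107 and 47 in the control-labelled libraries, where the groups overlapped. The partner of CG14823, CG32391, had 29.6 and 43.1 normalized counts in the mutant-labelled libraries, against 24.3 and 10.9 in the control-labelled libraries, with no overlap of the groups. On the same strand, exons of other genes cover 3.86% of CG3285 and 4.5% of CG32195. CG32195 had 93.2 and 88.2 normalized counts in the mutant-labelled libraries, against 22.5 and 21.7 in the control-labelled libraries.

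Within the groups the members did not follow a single library. The first mutant-labelled library was the higher of its pair for 43 members and the second for 36, and the first control-labelled library was the higher for 34 and the second for 45. Over all genes tested, the first library was the higher for 46.5% in the mutant-labelled libraries and for 52.5% in the control-labelled libraries. The mutant-labelled libraries were over 1.5-fold apart for 17 members and over 2-fold apart for 4, which were CG3868, CG43968, CG43351 and CG31792. The most even pairs were those of CG14221, CG7589, CG3566 and CG8358, and CG14221 had 108 and 108 normalized counts in the mutant-labelled libraries, against 15.3 and 31.4 in the control-labelled libraries. The control-labelled libraries were over 2-fold apart for 18 members, of which 9 were higher in the first library and 9 in the second. A mutant pair over 2-fold apart was found for 10.4% of tested genes with a mean of at least 50 in the mutant-labelled libraries, but the rule itself keeps out many genes with an uneven pair.

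**Figure D4:**
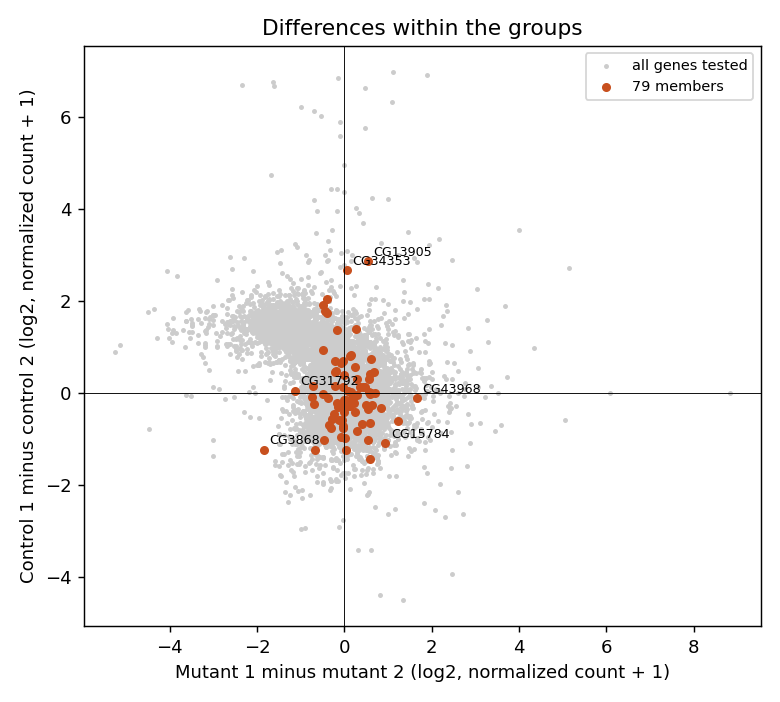
For each gene the log2 difference between the 2 mutant-labelled libraries is set against that between the 2 control-labelled libraries, with members in colour over all tested genes in grey. Members lie on both sides of 0 on both axes, with 43 higher in the first mutant-labelled library and 34 higher in the first control-labelled library.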

How the data were processed

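RNA from 2 extractions of Xbp1 ex79-/- larvae and 2 of Xbp1 +/+ larvae was analysed. Per the labels and the submitters' processing notes, reads were aligned to dm6 with TopHat2 2.1.1, counted per gene with HTSeq 0.6.1 and scaled by the authors with DESeq2. The deposited values are normalized counts, a signal equal to reads divided by a size factor. Each library's lowest step gave back whole reads for 100% of values, to within 0.01 read. limma 3.58.1 (R 4.3.3) was fitted to log2(normalized count + 1) over genes averaging 10 or more, with a trended variance and Benjamini-Hochberg adjustment. edgeR 4.0.16 and DESeq2 1.42.0 were run on the recovered reads as alternatives. Scripts were tested on simulated data. With 2 libraries a group, p-values measure only the spread between extractions. Members were named by fixed ranks (12 widest margins, 8 most abundant, both control libraries at 3 reads or fewer, nearest the thresholds, most and least even mutant pairs, within 20 kb of each other, named by the study) and by annotated role. CG16762, CG11882, CG13321 and CG13488 were picked after their values were seen. The members and lists were chosen with earlier results of these data known. Names and positions came from the Ensembl dm6 annotation and RefSeq gene tables. Member sequences were not analysed here. Alternatives were the rule's thresholds, scaling, pseudocount, filter, tool, pairing and each library left out. Other table columns that were not mapped numbered 0.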

Additional observations from a re-analysis of the deposited data

How the results depend on the processing

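The number of members depends on the thresholds by construction: 121 with a minimum of 20 normalized counts, 50 with 100, 182 with a ratio of 1.5 and 27 with a ratio of 3, against 79. Rescaling to the same total outside CR41602 gave 58 members, of which 54 were among the 79, and moved the median log2 difference of all genes to -0.186, against -0.032, while TMM gave 76 and quantile normalization 114. Leaving out a library loosens the rule, and gave 120 to 187 members. The members' median log2 difference of 1.80 ran between 1.65 and 2.02, and the lowest member difference under any setting was 0.99. The rule's own margin keeps these differences above 0, so their sign is no sign of stability.

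Across all genes limma called 1 higher and 0 lower in the mutant-labelled libraries (723 and 760 at an unadjusted p under 0.05). The higher count was 3 without the filter, 3 with the same total, 9 with quantile normalization, 0 with an untrended variance and 1 with edgeR. DESeq2 called 178 higher and 169 lower. Leaving out 1 library gave 0 to 34 higher and 0 to 103 lower, the largest without the second mutant-labelled library. The cause of these differences was not tested. A replicate block in limma gave 0 higher calls, and libraries of the same number deviated in opposite directions (correlation -0.443 over 10500 genes), so the numbers do not pair the samples. A crossed pairing, chosen after seeing the data as was TMM in limma, called 390 higher and 1410 lower. Depth limits the 6 members with 5 reads or fewer in a control-labelled library.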
